A study of Mus musculus with 52 samples.

Results

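The proteasome genes described here are the protein-coding mouse genes whose symbol starts with Psma, Psmb, Psmc, Psmd, Psme, Psmf or Psmg. They were found by matching the table's Ensembl identifiers to the GENCODE mouse annotation, and they number 50 of the 55487 identifiers in the table. By role they are 7 alpha subunits of the 20S core and 1 alpha subunit of germ cells (Psma8), 7 constitutive beta subunits of which 3 are catalytic, 3 immunoproteasome beta subunits, 1 beta subunit of thymic epithelium (Psmb11), 6 ATPases and 11 non-ATPase subunits of the 19S cap, 4 activators and a copy of 1 of them (Psme2b), the inhibitor Psmf1, and 7 assembly factors. The last member, Psmc3ip, encodes a meiotic recombination factor that matches the prefix and is no part of the proteasome. Psma8 and Psmb11 were close to absent and failed the filter on low counts, so 48 members were tested.

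RNA was sequenced from the gastrocnemius, a calf muscle of mostly fast fibres, of 52 male C57BL/6 mice aged 22 to 24 months, in 13 groups of 4 libraries. Ambulatory mice on plain water served as the baseline (AMB_W). Mice with unloaded hindlimbs (HU) and mice reloaded for 7 d (RL7) or 14 d (RL14) after unloading drank water with metformin (M), leucine (L), metformin and leucine (ML), or plain water (W). Metformin is a glucose-lowering drug that acts on mitochondrial energy metabolism, and leucine is a branched-chain amino acid that switches on protein synthesis. All groups thus share strain, sex, age range and muscle, and no young mice and no ambulatory mice on a drug were part of the series. The labels give neither the length of unloading nor the doses, and nothing in them ties 2 libraries to 1 mouse, so each library was taken as 1 mouse and p-values measure the spread between these samples. Libraries are named by group and replicate number, as in HU_W 1. The labelled muscle was checked by 10 fast myofibre markers, which summed to at least 79000 counts per 1000000 counts (CPM) in every library.

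The proteasome is the barrel-shaped protease that degrades most ubiquitin-tagged proteins in the cytosol and nucleus. Its 20S core stacks 2 rings of alpha subunits around 2 rings of beta subunits, the beta rings hold the proteolytic sites, and the 19S cap binds, unfolds and feeds in the tagged protein. In immune cells and under interferon, immunoproteasome subunits replace the catalytic beta subunits, and the cap can give way to the PA28 or PA200 activators. In skeletal muscle the proteasome takes part in the breakdown of myofibrillar proteins during atrophy, together with the ubiquitin ligases Trim63 (MuRF1) and Fbxo32 (atrogin-1).

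Library depth ran from 15605044 to 32492548 counts, and the members took about 0.2% of the counts. Several features of the libraries moved with the groups. The 5.8S ribosomal RNA, part of the RNA that the library kit removes, averaged 0.718 to 4.99 CPM in 6 groups (RL14_W, RL7_L, RL7_M, RL7_ML, HU_ML and RL7_W) and 10.3 to 24.4 CPM in the other 7. Across all genes, the log2 difference between RL7 and HU correlated with transcript GC content at r = 0.41, and over the 48 members at r = 0.49. Liver transcripts were present at 16 CPM or more of albumin in 12 libraries. The libraries RL14_ML 1 and RL14_ML 6 lay at opposite ends for many members, such as Psma4 at 16.7 CPM in RL14_ML 1 and 77.6 CPM in RL14_ML 6. Results that change when these features or libraries are set aside are given with and without them.

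Proteasome genes carry short control sequences in front of their start, of which the antioxidant response element (ARE), bound by the factors NFE2L1 and NFE2L2, is the best known. The 250 bases before the start were available for 42 of the 50 members (RefSeq, GRCm38.p6). The ARE core TGACNNNGC was found in 5 of them on either strand, in Psmb5, Psmb6, Psmc6, Psmd12 and Psmd9, against 10.2% of all 32851 promoters. The 42 members had 45 windows, so the core was about as frequent in them as in all promoters. The interferon-gamma element TTCNNNGAA was found before Psmb8 and Psmg1, against 7.02% of all promoters. The interferon element, GAAA and GAAA with 2 bases between, was found before Psmb3, Psmd4 and Psmd9 (2.98% of all promoters), and the NF-kappa-B letters, GGG, any 2 bases, TT, any base and CC, in none (4.11%). None of these letters overlapped another match in the same window.

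All 5 members with the ARE core differed at 7 d of reloading, and genes with the same core went in opposite directions. Psmd9, which rose, is left out here, and the promoters of the other 4 are shown. They lie at chr14:54618023-54618245 on the minus strand for Psmb5, chr11:70525107-70525356 on the plus strand for Psmb6, chr14:45329574-45329787 on the plus strand for Psmc6 and chr11:107479278-107479483 on the plus strand for Psmd12. The start is that of RefSeq. The last 27, 36 and 44 bases before it in Psmb5, Psmc6 and Psmd12 lie inside the GENCODE gene and are not shown. The window of Psmb8 lies wholly inside its GENCODE gene. Each runs 5′ to 3′ toward the gene, with the matched letters in capitals.
Psmb5: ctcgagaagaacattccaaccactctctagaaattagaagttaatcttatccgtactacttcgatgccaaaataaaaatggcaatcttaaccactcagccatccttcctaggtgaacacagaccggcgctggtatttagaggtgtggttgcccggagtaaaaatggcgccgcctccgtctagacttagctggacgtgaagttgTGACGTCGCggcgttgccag
Psmb6: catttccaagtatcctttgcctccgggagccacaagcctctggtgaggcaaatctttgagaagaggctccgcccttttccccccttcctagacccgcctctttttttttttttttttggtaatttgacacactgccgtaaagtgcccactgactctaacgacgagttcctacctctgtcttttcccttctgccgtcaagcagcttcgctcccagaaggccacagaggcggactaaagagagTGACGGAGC
Psmc6: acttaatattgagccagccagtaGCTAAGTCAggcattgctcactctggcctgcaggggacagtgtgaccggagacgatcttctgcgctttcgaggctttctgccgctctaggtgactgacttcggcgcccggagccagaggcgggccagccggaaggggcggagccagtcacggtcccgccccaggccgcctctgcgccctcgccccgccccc
Psmd12: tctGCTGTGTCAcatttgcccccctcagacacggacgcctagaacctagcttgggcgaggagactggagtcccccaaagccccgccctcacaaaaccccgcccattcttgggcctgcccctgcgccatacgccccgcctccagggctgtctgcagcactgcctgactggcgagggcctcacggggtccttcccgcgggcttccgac
The match ended 39 bases before the RefSeq start in Psmb5 and 1 base before it in Psmb6, both on the gene's own strand. In Psmc6 and Psmd12 it lay at the far end of the window on the opposite strand. A match is a description of letters and shows no binding.

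Per kilobase of exon, the 31 constitutive subunits of the core and cap spanned 6.16 CPM per kb for the cap subunit Psmd13 to 36.9 CPM per kb for the alpha subunit Psma6, with a median of 18.1. Of the 31, 24 lay within 2-fold of that median. The medians were 12.7 CPM per kb for the alpha subunits, 21.6 for the catalytic and 8.62 for the other beta subunits, 23.7 for the cap ATPases and 18.1 for the other cap subunits. Psme4, which encodes the PA200 activator, had the highest level of all members at 40.5 CPM per kb, with 182 to 431 CPM per library. The other activators were lower, at 16.3 CPM per kb for Psme3, which encodes the nuclear PA28 gamma ring, 9.62 for Psme1 and 2.75 for Psme2, the subunits of PA28 alpha-beta. The assembly factors lay between 0.338 CPM per kb (Psmg3) and 3.20 (Psmg2). The immunoproteasome subunits were near the bottom, at 0.998 CPM per kb for Psmb10, 0.593 for Psmb8 and 0.269 for Psmb9.

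**Figure D1:**
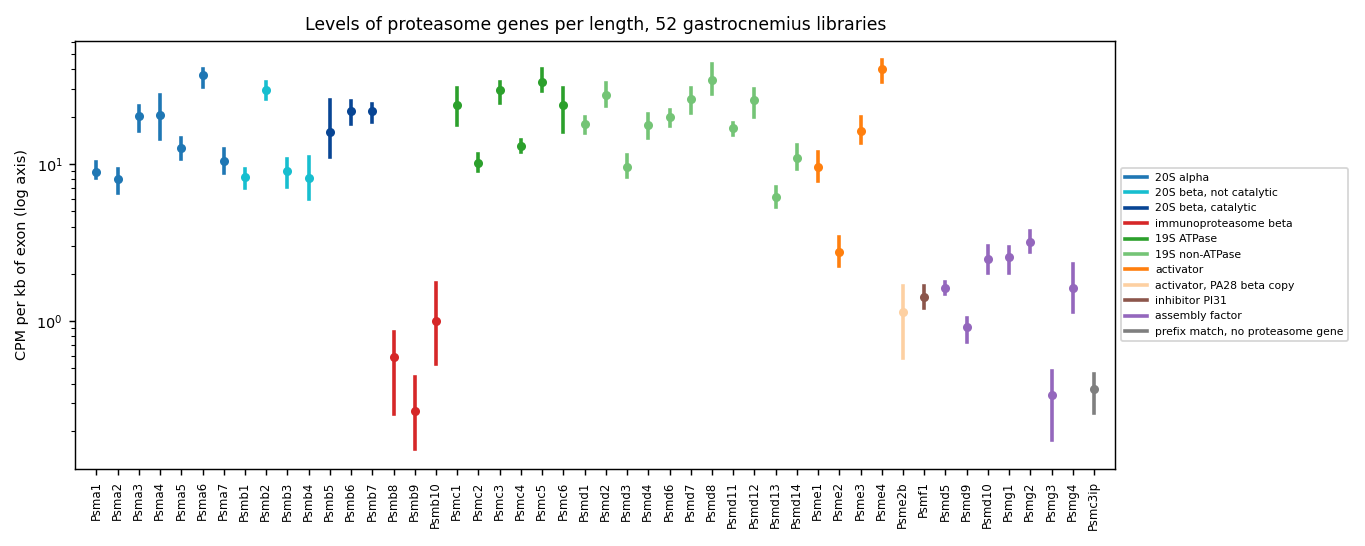
Level of 48 proteasome genes in gastrocnemius, as CPM per kb of exon on a log axis, coloured by role. Points are means over 52 libraries and vertical lines span the lowest to the highest of the 13 group means. Constitutive subunits sit between 6.16 and 36.9 CPM per kb and the 3 immunoproteasome subunits at or below 0.998.

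Exons of 11 members overlap a gene on the opposite strand, among them Psma4, Psmb7, Psmb8, Psmb9 (with Tap1), Psmc3, Psmd3, Psmd13 and Psme1, and the strand setting of the counting is not given in the sources used here. Reads of these genes and of their partners may therefore be mixed. Psme2b shares most of its sequence with Psme2, so the split of reads between them is uncertain. Psma8 had 79 counts over all 52 libraries and Psmb11 had 4.

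Psmb5 (ENSMUSG00000022193) lies on chromosome 14 at 54614119 to 54618022 on the minus strand, Psmb4 (ENSMUSG00000005779) on chromosome 3 at 94884093 to 94886961 on the minus strand, Psmb3 (ENSMUSG00000069744) on chromosome 11 at 97703399 to 97713500 on the plus strand and Psmb10 (ENSMUSG00000031897) on chromosome 8 at 105935735 to 105938444 on the minus strand of GRCm38. The results turn mostly on these 4 genes.

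Among the 13 groups, 21 of 48 members differed in some way (edgeR quasi-likelihood F test, Benjamini-Hochberg adjusted p under 0.05), beside 40% of all 16668 genes tested. The smallest adjusted p-values belonged to Psmb5 (8.69e-07), the chymotrypsin-like catalytic subunit, Psmb4 (2.18e-05), a beta subunit with no proteolytic site, and Psmb10 (5.50e-05), the immunoproteasome form of the trypsin-like subunit. Next came Psme3 (3.44e-04), Psmb3 (5.61e-04), Psmd13 (0.00164), Psma4 (0.00267) and Psmd8 (0.00320), which encode an activator, a beta, an alpha and 2 cap subunits. Without RL14_ML 1, 33 members passed. With the 5.8S level as a covariate 3 passed, and without the 12 libraries with liver transcripts 11 passed. In the heat map of group means, Psmb5, Psmb4 and Psmb10 have their 6 highest means in the 4 RL7 groups, RL14_W and HU_ML, the 6 groups with the least 5.8S RNA. Psmb9 averaged 0.605 CPM in RL14_W and 0.824 CPM in AMB_W.

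**Figure D2:**
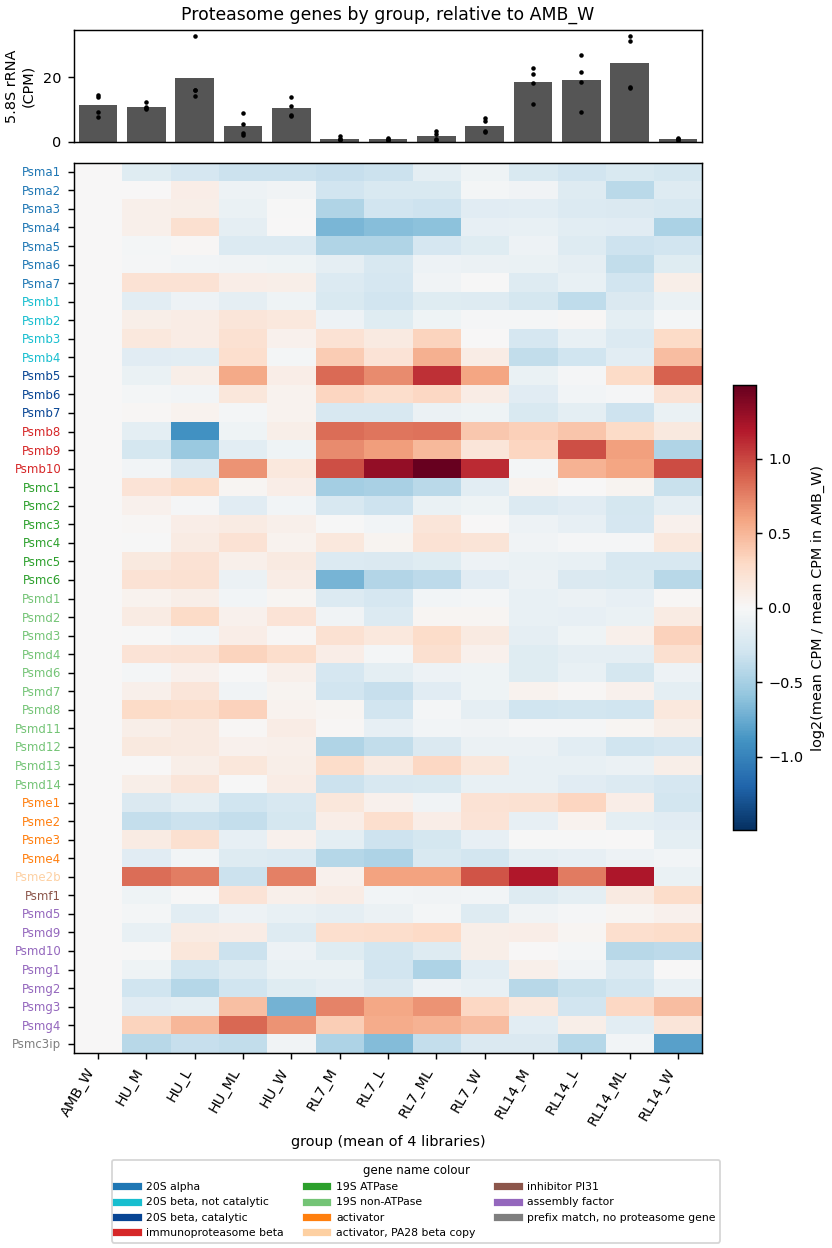
Mean level of the 48 tested genes in each group, as log2 of the mean CPM over the mean in AMB_W (red higher, blue lower; gene names coloured by role), with the 5.8S rRNA level of each library (points) and group mean (bars, CPM) above. The 6 highest means of Psmb5 and of Psmb10 are in the 4 RL7 groups, RL14_W and HU_ML, where mean 5.8S rRNA was 4.99 CPM or less.

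On plain water the log2 differences of the members between unloaded and ambulatory muscle ran from -0.70 to 0.75. With 4 libraries per group, a lack of calls does not show equal levels. No member passed in HU_W against AMB_W, where 2.78% of all genes did, and 1 member had an unadjusted p under 0.05, as 13.7% of all genes did. DESeq2 also called none, and limma with voom weights called 1. The median log2 difference was 0.05 over the members and -0.01 over all genes, with 29 members higher and 19 lower. The member with the smallest p was Psma1, a core alpha subunit, with 22.1, 23.9, 26.4 and 25.5 CPM in HU_W and 29.6 to 31.6 CPM in AMB_W. All 4 HU_W libraries lay below all 4 AMB_W libraries for Psma1, and the adjusted p was 0.148 (log2 difference -0.32 ± 0.11, SE). The next 2 were Psmd4 at 0.26 ± 0.14 (adjusted p = 0.417) and Psmg3 at -0.70 ± 0.39 (0.446).

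A few genes of the wider ubiquitin pathway changed on unloading. In a list of 12 transcription factors and processing enzymes of proteasome genes, 4 rose in HU_W against AMB_W and none fell. Foxo1, a factor that drives atrophy genes, was higher by 2.13 ± 0.21 on the log2 scale (SE, adjusted p = 2.79e-09), Foxo3 by 0.54 ± 0.13 (0.0118), Maff by 1.51 ± 0.41 (0.0300) and Nfe2l2 by 0.43 ± 0.13 (0.0485). Of 14 muscle ubiquitin ligases and segregase genes, Trim63 alone passed, at 0.88 ± 0.26 (adjusted p = 0.0473), and the ER-linked ubiquitin-conjugating enzyme Ube2j1 was the 1 of 11 ubiquitin genes that did (0.49 ± 0.12, adjusted p = 0.0146). None of 15 proteasome genes outside the naming rule passed. Foxo1, Foxo3, Maff, Trim63 and Ube2j1 also passed here with the 5.8S level as a covariate, and Nfe2l2 did not (adjusted p = 0.0514). In the same libraries 5 of 6 erythroid markers rose, with a summed level of 27.6 to 59.9 CPM in HU_W and 2.85 to 6.24 CPM in AMB_W, and the fibroblast markers Col1a1, Col1a2 and Col3a1 fell. Their part in these changes was not tested.

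Reloading for 7 d moved the members in both directions. Averaged over the 4 drinks, 32 of 48 members passed in RL7 against HU (16 libraries each), beside 52.7% of all genes. The 13 that rose stand beside 29.2% of all genes that rose and the 19 that fell beside 23.5%. The median log2 difference was -0.12 over the members and 0.05 over all genes, with 17 members higher and 31 lower. In all 4 drinks the sign was the same for 35 members, of which 22 were lower and 13 higher in RL7. The share of all genes with the same sign in all 4 drinks was not determined. The 35 members therefore cannot be set apart from other genes by this count. None of the 48 passed in RL7_W against HU_W alone. None passed over the 4 drinks with the 5.8S level as a covariate, as described below. The plot of log2 differences shows both sides by role.

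**Figure D3:**
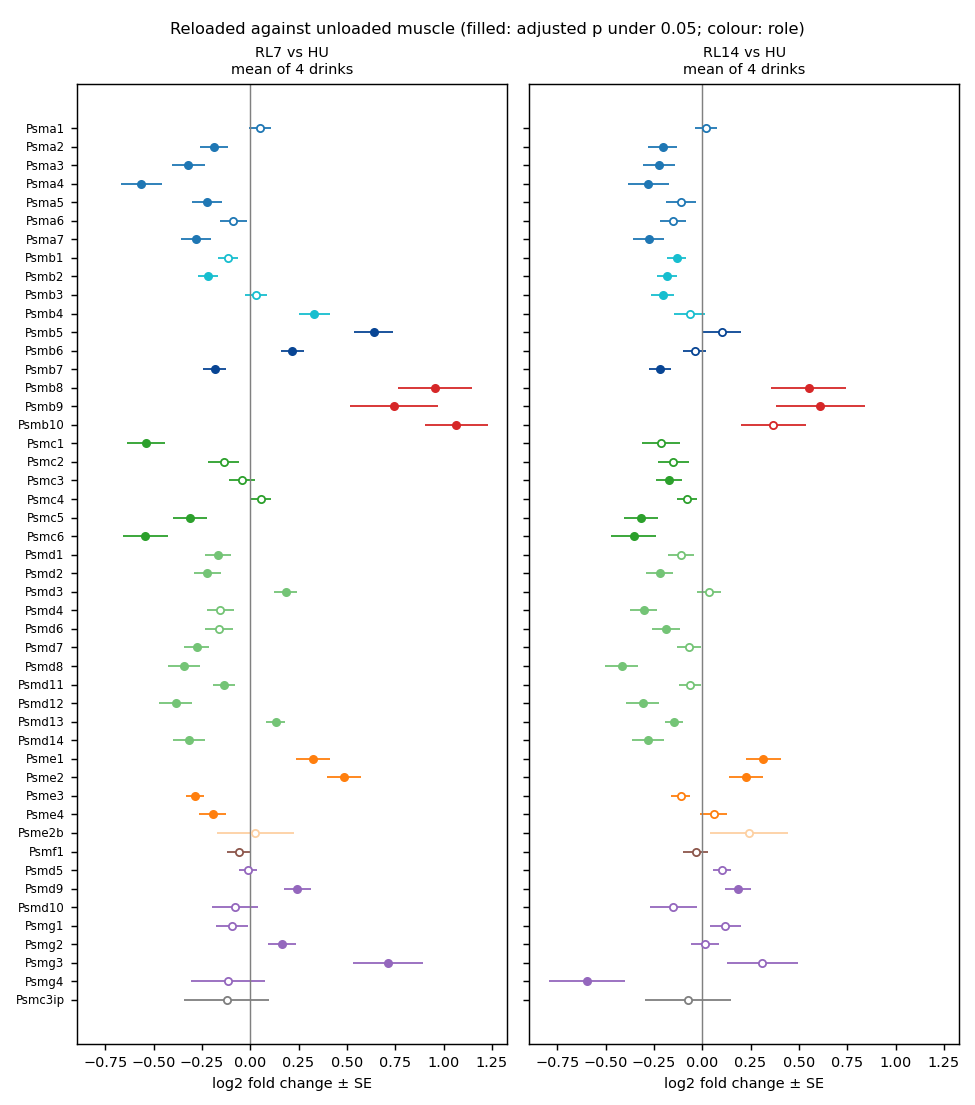
Log2 difference ± SE of the 48 tested genes in RL7 against HU (left) and RL14 against HU (right), each averaged over 4 drinks with 16 libraries per side, in the order and colours of the heat map. Filled points have an adjusted p under 0.05. At 7 d the immunoproteasome genes, Psmb5 and Psmb4 lie to the right of 0 and most alpha and cap subunits to the left.

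The 31 constitutive subunits had a median log2 difference of -0.17 at 7 d, with 17 that fell and 5 that rose. Of the 7 alpha subunits 5 fell, led by Psma4 at -0.56 ± 0.10 (SE, adjusted p = 1.94e-05). Psma4 had a median of 37.8 CPM in RL7 (26.1 to 58.5) and 55.6 CPM in HU (44.4 to 82.8), and the ranges overlapped. Of the 6 cap ATPases 3 fell, Psmc1 by 0.54 ± 0.10 (1.31e-05), Psmc6 by 0.54 ± 0.12 (1.79e-04) and Psmc5 by 0.31 ± 0.09 (0.00310), which turned to 0.14 with the 5.8S level as a covariate. Psmc6 ran from 27.5 to 93.0 CPM with a median of 69.0 in RL7 and from 72.3 to 136 CPM with a median of 97.9 in HU. The lowest RL7 value of Psmc6 came from RL7_M 4 and the next lowest was 59.5 CPM. Of the 11 other cap subunits 7 fell, among them the lid subunits Psmd12 (-0.39 ± 0.09, adjusted p = 1.98e-04) and Psmd8 (-0.34 ± 0.09, 7.73e-04) and the deubiquitinase Psmd14 (-0.32 ± 0.08, 0.00121). Psmd3 (0.18 ± 0.06, 0.0114) and Psmd13 (0.13 ± 0.05, 0.0184) rose, but were at -0.07 and -0.06 with the GC trend of each library removed.

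The catalytic beta subunits split. Psmb5 rose by 0.64 ± 0.10 on the log2 scale, a 1.56-fold higher level (adjusted p = 9.70e-07), with a median of 19 CPM in RL7 (12.9 to 27.3) and 11.4 CPM in HU (8.08 to 20.2). Apart from HU_ML, all HU libraries were at or below 13.6 CPM, while HU_ML had 19, 13, 20.2 and 11.4 CPM. Psmb6, the caspase-like subunit, had a median of 43.7 CPM in RL7 (38.5 to 57.6) and 38.4 CPM in HU (31.1 to 48.6), and Psmb7, the trypsin-like subunit, 70.5 CPM in RL7 (54 to 85.6) and 79.7 CPM in HU (69.3 to 91.4), so that both pairs of ranges overlapped. Psmb6 rose by 0.22 ± 0.06 (0.00197) and Psmb7 fell by 0.19 ± 0.06 (0.00729), a difference that turned to 0.02 with the 5.8S level as a covariate and to 0.01 with the GC trend removed. Psmb4 had a median of 18.9 CPM in RL7 (13.1 to 27.2) and 14.8 CPM in HU (11.5 to 20). Among the beta subunits without a proteolytic site, Psmb4 rose by 0.33 ± 0.08 (5.21e-04) and Psmb2 fell by 0.22 ± 0.05 (4.18e-04), while Psmb3 differed by 0.03 and Psmb1 by -0.12 and did not pass. The letters of the ARE core were thus present both in members that rose, Psmb5, Psmb6 and the assembly factor Psmd9 (0.24 ± 0.07, adjusted p = 0.00230), and in members that fell, Psmc6 and Psmd12.

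The immunoproteasome genes and PA28 rose at 7 d. Psmb10 had 1.58 to 3.5 CPM with a median of 2.44 in RL7 and 0.516 to 2.01 CPM with a median of 1.07 in HU, and was higher by 1.07 ± 0.16 on the log2 scale (SE, adjusted p = 6.28e-07). The RL7 libraries of Psmb10 overlapped those of HU only in the range from 1.58 to 2.01 CPM. Psmb8, the form that replaces Psmb5, was higher by 0.95 ± 0.19 (5.03e-05) and Psmb9, the form that replaces Psmb6, by 0.74 ± 0.23 (0.00520). The median of Psmb8 was 2.37 CPM in RL7 (1.754 to 4.41) and 1.54 CPM in HU (0.516 to 2.37), and that of Psmb9 was 1.13 CPM in RL7 (0.564 to 2.26) and 0.641 CPM in HU (0.341 to 1.32). Both overlapped between the times more widely than Psmb10 did. The PA28 subunits Psme2 (0.48 ± 0.09, 9.84e-06) and Psme1 (0.32 ± 0.09, 0.00209) also rose. Psme2 had a median of 5.98 CPM in RL7 (4.38 to 7.07) and 4.12 CPM in HU (3.09 to 5.26), with the highest HU libraries inside the RL7 range. Psme3 had a median of 41.6 CPM in RL7 (36.2 to 50.3) and 51.3 CPM in HU (40.4 to 73.3). Psme3 fell by 0.29 ± 0.05 (4.06e-06) and Psme4 by 0.20 ± 0.07 (0.0187). In whole muscle, more cells of a type and more RNA per cell cannot be told apart, nor fewer cells and less RNA per cell.

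**Figure D4:**
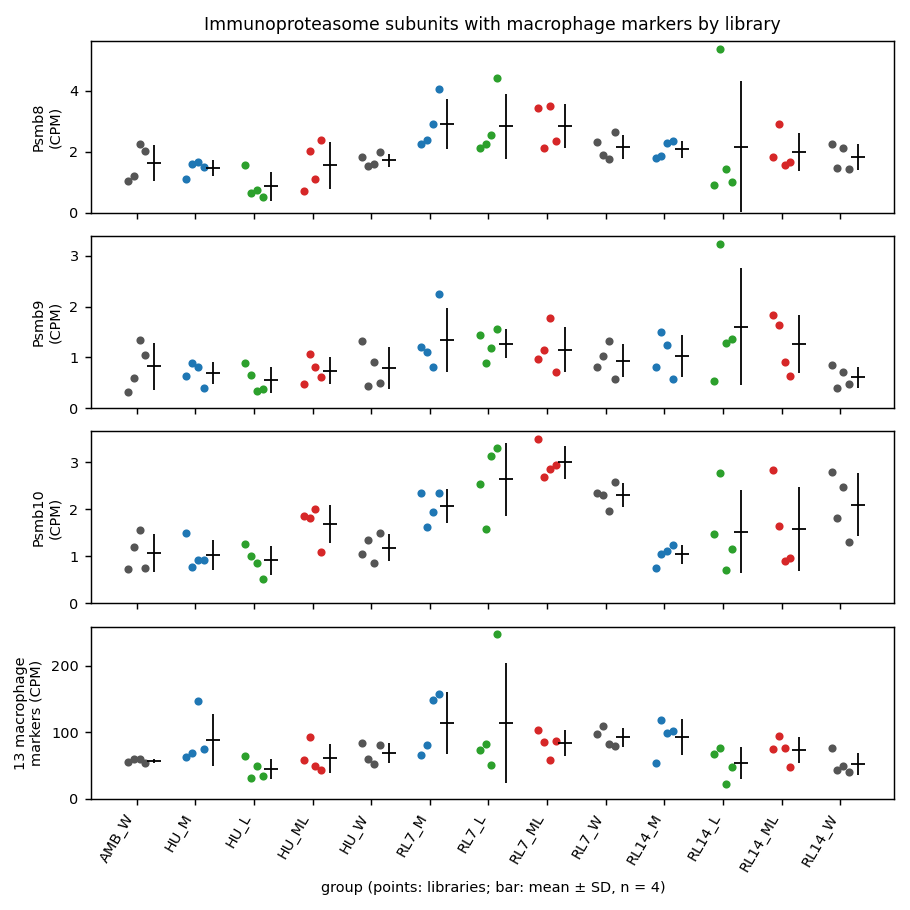
CPM of Psmb8, Psmb9 and Psmb10 and the summed CPM of 13 macrophage markers in each library (points) with the mean ± SD of the 4 libraries of each group. All 16 RL7 libraries have at least 1.58 CPM of Psmb10, and the macrophage sum reaches 247 CPM in 1 RL7_L library.

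The level of Psmb10 was set against that of Psmb7, the subunit it replaces, within each library. As CPM per kb of exon, Psmb10 stood at 6.39% of Psmb7 in RL7_M and 2.61% in HU_M (means of 4 libraries here and below). The share was 7.83% in RL7_L and 2.28% in HU_L, and 8.13% in RL7_ML and 4.43% in HU_ML. On plain water it was 6.16% in RL7_W and 2.90% in HU_W. Within each drink the 4 RL7 libraries lay above the 4 HU libraries. The log2 ratio was higher by 1.31 with metformin, 1.84 with leucine, 0.92 with both and 1.11 with water, each with p = 0.0286 (two-sided exact permutation test, n = 4 per group, adjusted p = 0.0381 over 8 comparisons), the smallest p that 4 against 4 allow. The ratio was also higher in RL7_W than in AMB_W, by 1.25, and in RL14_W than in HU_W, by 0.94, with the same p. In RL14_W against AMB_W it was higher by 1.09 (p = 0.0571, exact permutation test) and in HU_W against AMB_W by 0.15 (p = 0.686, exact permutation test). Leaving out any 1 library leaves 3 against 4, where p cannot go below 0.0571. In each comparison of Psmb10 to Psmb7 that passed, the group with the higher ratio also had less of the measured ribosomal RNA on average. Its means were 0.718 to 4.99 CPM in the RL7 groups and RL14_W, and 4.75 to 19.8 CPM in the HU groups and AMB_W. The longest transcript of Psmb10 has 56.5% GC and that of Psmb7 40.8%. Whether the ratio differs with the ribosomal RNA level as a covariate or the GC trend removed was not tested. The ratio of Psmb8 to Psmb5 and of Psmb9 to Psmb6 passed in none of 8 comparisons each after adjustment, with 1 unadjusted p of 0.0286 for Psmb8 to Psmb5 in RL14_W against HU_W (log2 difference -0.71, exact permutation test).

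Macrophages and other immune cells carry immunoproteasome genes, and markers of other cell types moved too. Over all genes 29.2% rose and 23.5% fell in RL7 against HU. Of 13 macrophage markers, all of which passed the filter on low counts, 10 rose in RL7 against HU with a median log2 difference of 0.77. Their summed level was 50.6 to 247 CPM in RL7 and 30.8 to 147 CPM in HU. By drink, the same 10 rose in RL7_L against HU_L, where Psmb8 (1.66 ± 0.40, SE) and Psmb10 (1.5 ± 0.33) passed, while none of the 13 passed in RL7_M against HU_M, where Psmb10 (1.00 ± 0.33, adjusted p = 0.0186) and Psmb8 (0.98 ± 0.38, 0.0432) did. The 13 markers summed to 147 CPM in HU_M 3 and 63.3 to 75.1 CPM in the other HU_M libraries, against 66.3 to 158 CPM in RL7_M. With the 5.8S level as a covariate Psmb8 differed by -0.03 in RL7_M against HU_M. Every RL7_M library had less 5.8S RNA than every HU_M library, so the 5.8S level and the time cannot be told apart there. The 10 lymphocyte markers in the table, none of which passed the filter, summed to 17.4 CPM in HU_M 3 and to at most 2.09 CPM in every other library. In the same comparison of RL7 with HU, 6 of 8 endothelial, 6 of 7 fibroblast and 6 of 8 adipocyte markers rose and 5 of 6 erythroid markers fell, while of 10 fast myofibre markers 3 rose and 5 fell and none of 6 slow myofibre and 8 liver markers passed. The part of these cells in the rise of Psmb8, Psmb9 and Psmb10 was not tested. Of 12 genes of antigen presentation on MHC class I and its regulators, 8 rose at 7 d with a median of 0.64 and none fell, among them Tapbp by 0.78 ± 0.11 (adjusted p = 2.30e-07), Tap1 by 0.95 ± 0.24 (0.00110) and H2-K1 by 0.50 ± 0.11 (1.68e-04). None of these 3 passed with the 5.8S level as a covariate, a level that can hardly be told apart from time in this comparison.

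Of the 7 assembly factors, Psmg3 (0.71 ± 0.18, SE, adjusted p = 0.00106), Psmd9, with a median of 7.32 CPM in RL7 and 6.09 CPM in HU, and Psmg2 (0.17 ± 0.07, 0.0489) rose at 7 d and none fell. Psmg3 and Psmg4 form a chaperone pair that helps to build the alpha ring, and Psmg4 differed by -0.12 and did not pass, nor did Psmg1 (-0.09), Psmd5 (-0.01) and Psmd10 (-0.08). Psmg3 had a median of 1.22 CPM in RL7 (0.777 to 1.67) and 0.776 CPM in HU (0.319 to 1.34). Both are read at about 1 CPM, so counting noise is large for them. The inhibitor Psmf1 (PI31) differed by -0.06 and did not pass. Of 15 proteasome genes outside the naming rule, 10 fell and 2 rose at 7 d, beside 23.5% of all genes that fell and 29.2% that rose. Ecpas, an adaptor that binds the cap, fell by 0.34 ± 0.05 (1.78e-06), the stress-linked ubiquitin-binding gene Zfand5 by 0.47 ± 0.08 (2.84e-06) and Akirin2, the importer of proteasomes into the nucleus, by 0.22 ± 0.05 (4.42e-04).

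Foxo1, Foxo3, Maff, Nfe2l2, Trim63 and Ube2j1, which rose on unloading, fell on reloading, in a comparison that uses the same HU_W libraries among others. Foxo1 fell by 2.53 ± 0.11 on the log2 scale in RL7 against HU (SE, adjusted p = 6.19e-23) and Nfe2l2 by 0.55 ± 0.06 (1.59e-09), and 7 of the 12 genes of transcription and processing fell with none rising. With the 5.8S level as a covariate Foxo1 (-2.17 ± 0.23), Foxo3, Nfe2l2, Trim63 and Ube2j1 still passed at 7 d, while Maff and Fbxo32 did not. Nfe2l1, the main known driver of subunit genes when proteasomes are inhibited, differed by 0.10 and did not pass. Trim63 fell by 1.39 ± 0.13 (1.14e-11) and Fbxo32 by 0.88 ± 0.11 (3.05e-08), among 8 of 14 ligase and segregase genes that fell and 3 that rose. Of 11 ubiquitin genes, 6 fell and 2 rose. These list counts at 7 d stand beside 23.5% of all genes that fell and 29.2% that rose.

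Within single drinks the counts at 7 d were unequal, and they moved with the library features. In RL7_M against HU_M 17 members passed, 8 higher and 9 lower, beside 29.6% of all genes (15.4% higher and 14.2% lower). In RL7_L against HU_L 19 passed, 5 higher and 14 lower, beside 28.6% (14.7% higher and 13.9% lower). In RL7_W against HU_W none passed, beside 4.88% of all genes, and 7 had an unadjusted p under 0.05, beside 20%. The 3 with the smallest p there were Psmb10 (0.95 ± 0.33, SE, adjusted p = 0.0764), Psme2 (0.47 ± 0.17, 0.103) and Psmg3 (1.00 ± 0.38, 0.119), all higher in RL7_W than in HU_W. In RL7_ML against HU_ML none passed, beside 5.91%, and 10 had an unadjusted p under 0.05, beside 22.9%. DESeq2 also called none in these last 2 comparisons, where limma with voom weights called 5 and 8. The count in RL7_L against HU_L was 9 without HU_L 5 or without RL7_L 5 and 2 without the 12 libraries with liver transcripts. The count in RL7_M against HU_M was 8 without RL7_M 4, 11 without RL7_M 3, and 10 without HU_M 1, HU_M 3 or HU_M 4. With the 5.8S level as a covariate none of the 48 members passed in RL7 against HU averaged over drinks, and 414 of all genes did in place of 8788; the log2 difference was then 0.69 for Psmb10 and 0.38 for Psmb5, with adjusted p of 0.320 and 0.395. The 5.8S level was 0.379 to 1.63 CPM in RL7_M and 10 to 12.3 CPM in HU_M. It was 0.533 to 1.14 CPM in RL7_L and 14.3 to 32.8 CPM in HU_L, and 2.91 to 7.39 CPM in RL7_W and 7.99 to 13.8 CPM in HU_W. Only RL7_ML and HU_ML overlapped. The 5.8S level and the time can thus hardly be told apart at 7 d, and the loss of calls with the covariate decides between neither. Without the 12 libraries with liver transcripts 26 members passed in RL7 against HU over the 4 drinks.

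After 14 d of reloading 24 members differed from HU over the 4 drinks (16 libraries each), 5 higher and 19 lower, beside 29.7% of all genes, 16.4% higher and 13.3% lower. The HU libraries are the same as in the comparison at 7 d. The median log2 difference was -0.11 over the members and 0.04 over all genes. The constitutive subunits that passed all fell, 18 of 31. They were 4 alpha subunits, Psmb1, Psmb2, Psmb3 and Psmb7 among the beta subunits, the ATPases Psmc3, Psmc5 and Psmc6, and 7 other cap subunits. The average covers drinks that went different ways. On plain water 22 of the 31 were lower and 9 higher in RL14_W than in HU_W. Psmb3 was at 20.8 to 27.5 CPM in RL14_W and 17.9 to 22.6 CPM in HU_W, and Psmd8 at 96.0 to 128 CPM and 84.2 to 120 CPM. Psmd8, a lid subunit, fell by 0.42 ± 0.09 (SE, adjusted p = 1.96e-04), with 60.7 to 128 CPM and a median of 93.4 in RL14 and 84.2 to 157 CPM and a median of 127 in HU. Psmd4, the ubiquitin receptor of the cap, fell by 0.30 ± 0.07 (7.78e-04). The ranges of both times overlapped for Psmd8. Psme1 (0.32 ± 0.09, 0.00573), Psme2 (0.23 ± 0.09, 0.0445), Psmb8 (0.55 ± 0.19, 0.0263), Psmb9 (0.61 ± 0.23, 0.0379) and Psmd9 (0.18 ± 0.07, 0.0363) rose, and Psmg4 fell by 0.60 ± 0.20 (0.0186). In RL14_W against HU_W Psmd9 passed, while Psme1, Psme2, Psmb8 and Psmb9 did not. Psmb8 was at 1.43 to 2.24 CPM in RL14_W and 1.52 to 1.98 CPM in HU_W, and Psmb9 at 0.391 to 0.846 CPM and 0.434 to 1.32 CPM. The highest Psmb8 and Psmb9 in RL14, 5.37 and 3.24 CPM, both came from RL14_L 2. None of the 13 macrophage markers passed at 14 d, with a median of 0.12, and 7 of 12 antigen presentation genes rose. Of the other marker lists, 7 of 8 endothelial markers (median 0.40) and 5 of 7 fibroblast markers (median 0.52) rose, 2 of 6 erythroid markers fell, and of 10 fast myofibre markers 2 rose and 2 fell. The part of these cells in the 14 d differences was not tested.

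With the 5.8S level as a covariate the count at 14 d stayed 24, and 4894 of all genes passed in place of 4944. Mean 5.8S RNA was 0.718 CPM in RL14_W and 18.4 to 24.4 CPM in the other RL14 groups, against 4.75 to 19.8 CPM in the HU groups. Averaged over drinks, low and high levels largely offset each other. The covariate could therefore hardly change this comparison, and the unchanged count is no check of it. Without HU_M 4 or without HU_L 5 it was 15, and without the 12 libraries with liver transcripts it was 6 (Psmd4, Psmd8, Psma7, Psmb2, Psmg4 and Psmb8). Among the 15 proteasome genes outside the naming rule 4 fell at 14 d, including Pomp, the maturation factor of the core, by 0.24 ± 0.09 (adjusted p = 0.0348). Of the 12 genes of transcription and processing 7 fell, Foxo1 by 2.18 ± 0.11 (1.71e-20). Of the 14 ligase and segregase genes 5 fell and 1 rose, and of the 11 ubiquitin genes 5 fell. These list counts at 14 d stand beside 13.3% of all genes that fell and 16.4% that rose.

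On plain water 4 members passed at 14 d, all higher in RL14_W than in HU_W. RL14_W had more Psmb5 than HU_W, at 23.3, 20.8, 20.6 and 14.3 CPM in RL14_W and 13.6, 11, 10.2 and 11.3 CPM in HU_W, a log2 difference of 0.78 ± 0.20 (SE, adjusted p = 0.0114). All 4 RL14_W libraries lay above all 4 HU_W libraries, the closest pair being 14.3 and 13.6 CPM. Psmd9 (0.47 ± 0.14, 0.0251), Psmb4 (0.48 ± 0.16, 0.0449) and Psmg3 (1.15 ± 0.38, 0.0457) also rose and no member fell, so 4 of 48 passed beside 9.72% of all genes (5.50% higher). That no member fell depended on the fit, since 2 rose and 6 fell in a fit of only the groups compared, and 6 rose and 7 fell by limma with voom weights. None passed with the 5.8S level as a covariate. Psmb5 lost its call without RL14_W 1 (adjusted p = 0.0548). The count of 4 was 0 without RL14_W 1, 1 without HU_W 1, HU_W 3 or RL14_W 3, 2 without HU_W 4 or RL14_W 4, and 1 without the 12 libraries with liver transcripts. Against AMB_W, Psmb5 was the 1 member that passed, at 0.88 ± 0.20 (adjusted p = 0.0442), beside 0.174% of all genes (0.120% higher). AMB_W had 10.8, 11.3, 11.5 and 9.28 CPM of Psmb5, all below RL14_W. This call was lost without any 1 of AMB_W 2, 3, 4 or 5 or RL14_W 1, 3 or 4, and without the 12 libraries with liver transcripts it was 0.99 (adjusted p = 0.0138). It was lost as well with the 5.8S level as a covariate, with the GC trend removed, with no filter on low counts and with the replicate number as a block. In RL7_W against AMB_W none passed, beside 0% of all genes, with 4 members at an unadjusted p under 0.05, beside 8.05% of all genes. DESeq2 called none and limma with voom weights called 2.

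The drinks were set against water within each time. On unloading no member passed with metformin, leucine or both against HU_W, beside 0%, 0.00600% and 0.0480% of all genes, and 0, 2 and 5 members had an unadjusted p under 0.05, beside 3.88%, 2.99% and 6.23%. At 7 d of reloading none passed against RL7_W either, beside 0.138%, 0.0780% and 0.00600% of all genes, with 5, 3 and 4 members at an unadjusted p under 0.05, beside 13.7%, 9.01% and 9.10%. The member with the smallest p was Psmg3 in HU_M (0.55 ± 0.39, SE, adjusted p = 0.9993), Psmd9 in HU_L (0.32 ± 0.14, 0.9997) and Psmg3 in HU_ML (1.12 ± 0.38, 0.413), each against HU_W. It was Psma4 in RL7_M (-0.56 ± 0.21, adjusted p = 0.257) and in RL7_L (-0.51 ± 0.21, 0.507) and Psmb3 in RL7_ML (0.32 ± 0.12, 0.428), each against RL7_W. DESeq2 called none in these 6 comparisons, and limma with voom weights called 1 with metformin, 1 with leucine and 2 with both at 7 d and none on unloading.

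At 14 d the drinks had less of a few beta subunits than water. With metformin 6 members fell and none rose, beside 5.12% of all genes (3.58% lower). In other fits some members rose, 2 beside 7 that fell by DESeq2, 2 beside 12 by limma with voom weights, 5 beside 8 in a fit of only the groups compared and 1 beside 5 with the GC trend removed. The 6 were Psmb4 (-0.82 ± 0.16, SE, adjusted p = 0.00367), Psmb5 (-0.98 ± 0.20, 0.00584), Psmb3 (-0.54 ± 0.12, 0.00878), Psmb6 (-0.39 ± 0.12, 0.0442), the cap subunit Psmd3 (-0.47, 0.0234) and the inhibitor Psmf1 (-0.46, 0.0269). With leucine Psmb4 (-0.75 ± 0.16, 0.0259) and Psmb5 (-0.89 ± 0.20, 0.0313) fell, beside 0.294% of all genes (0.0900% lower). Neither passed without the 12 libraries with liver transcripts, which include RL14_L 4, RL14_L 5 and RL14_W 5, or with the 5.8S level as a covariate. With both, Psmb3 fell (-0.49 ± 0.12, 0.0292), beside 0.714% of all genes (0.342% lower), while Psmb4 (-0.61 ± 0.16, 0.0522) and Psmb5 (-0.60 ± 0.20, 0.172) did not pass. These 3 comparisons share the same 4 RL14_W libraries.

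Psmb5 was at 10.6, 11, 9.09 and 9.32 CPM in RL14_M, at 11.9, 12.6, 7.95 and 10.1 CPM in RL14_L and at 21.3, 12.1, 11.7 and 6.88 CPM in RL14_ML, against 23.3, 20.8, 20.6 and 14.3 CPM in RL14_W. The metformin and leucine libraries all lay below the water libraries, and RL14_ML 1 lay among them. Psmb4 was at 11.5, 12.9, 10.7 and 11.5 CPM in RL14_M, at 10.9, 17.1, 10.3 and 10.3 CPM in RL14_L and at 17.2, 14.2, 11.6 and 10.8 CPM in RL14_ML, against 21.9, 23.2, 21.4 and 15.8 CPM in RL14_W. The lowest water library, RL14_W 5, lay below RL14_L 2 and RL14_ML 1. Psmb3 was at 15.5 to 17.3 CPM in RL14_M, 16.7 to 19.6 CPM in RL14_L and 16.1 to 17.7 CPM in RL14_ML, against 20.8 to 27.5 CPM in RL14_W, and no library with a drug or leucine reached the water libraries.

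**Figure D5:**
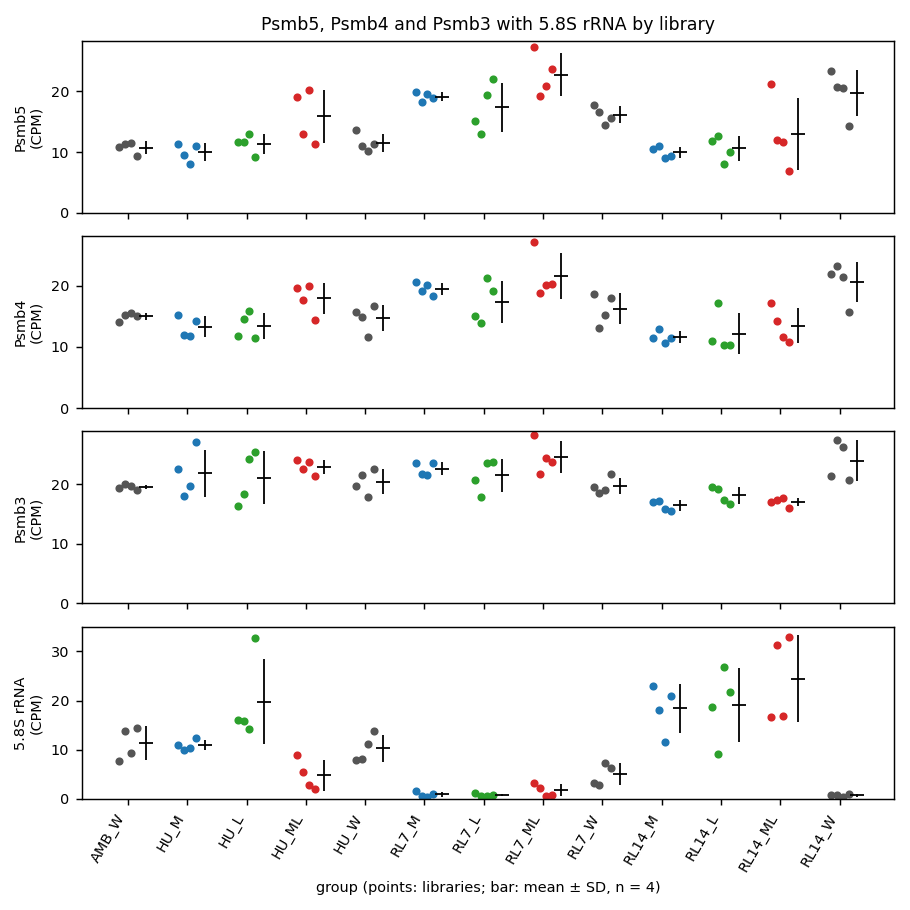
CPM of Psmb5, Psmb4, Psmb3 and 5.8S rRNA in each library (points) with the mean ± SD of the 4 libraries of each group. At 14 d the RL14_W libraries have 14.3 to 23.3 CPM of Psmb5 and 0.294 to 0.998 CPM of 5.8S rRNA, against 9.09 to 11 and 11.6 to 23 CPM in RL14_M.

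The same 3 genes were the members whose drink effect differed between the 3 times (edgeR F test, 3 of 48 beside 0.930% of all genes), with adjusted p of 0.0271 for Psmb3, 0.0274 for Psmb4 and 0.0490 for Psmb5. With any 1 of 43 libraries left out, Psmb5 no longer passed, at adjusted p of 0.0525 to 0.161. The count was 0 without RL7_W 2, RL7_W 3, RL14_W 3 or RL14_W 4, 1 without RL7_W 1, RL14_W 1 or RL14_M 6, and 10 without RL14_ML 1.

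The 14 d counts rested on few libraries. Without RL14_W 3, RL14_W 4 or RL14_M 6 the count with metformin was 2, Psmb4 and Psmb5, and without RL14_M 1 it was 3. With leucine it was 0 without RL14_W 1, RL14_W 3, RL14_W 4, RL14_L 4 or RL14_L 5. With both it was 11 without RL14_ML 1, 2 without RL14_W 5, and 0 without RL14_W 3, RL14_W 4, RL14_ML 3 or RL14_ML 6. Psmb4 and Psmb5 with metformin passed in each of these refits without 1 library.

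The library features moved with these comparisons as well. The 5.8S RNA was at 11.6 to 23 CPM in RL14_M and 0.294 to 0.998 CPM in RL14_W, and the mitochondrial share of counts was 17.5 to 27.4% in RL14_M and 8.31 to 11.7% in RL14_W. All 6 erythroid markers rose in RL14_M against RL14_W, with a summed level of 9.99 to 65.3 CPM in RL14_M and 2.69 to 4.60 CPM in RL14_W. The sum of 6 slow myofibre markers was 625 to 1400 CPM in RL14_M and 3.62 to 638 CPM in RL14_W, and none of them passed. Of the 10 fast myofibre markers Myh1 rose and Ckm and Pvalb fell, and of the 8 endothelial markers Emcn rose. With the 5.8S level as a covariate no member and none of all 16668 genes passed in RL14_M against RL14_W, where the log2 difference was -0.53 for Psmb5, -0.66 for Psmb4 and -0.72 for Psmb3 (adjusted p = 0.9997 each, unadjusted p of 0.170, 0.0368 and 0.00223). The 6 groups with the least 5.8S RNA were also the 6 with the highest mean Psmb5, at 15.9 to 22.8 CPM in them and 9.99 to 13 CPM in the other 7, and the same held for Psmb4, Psmb6 and Psmb10, but for Psmb3 in 5 of 6. The 5.8S difference and the difference in drink cannot be told apart at 14 d, since every RL14_W library was lower in 5.8S RNA than every other RL14 library.

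Other parts of the ubiquitin pathway at 14 d are given beside these genes. Ubb, a gene for ubiquitin itself, fell by 0.69 ± 0.12 on the log2 scale with metformin (SE, adjusted p = 0.00135), 0.61 ± 0.12 with leucine (0.0140) and 0.84 ± 0.12 with both (2.76e-05) against RL14_W. Ubb passed in none of the 3 with the 5.8S level as a covariate (log2 differences of -0.63, -0.54 and -0.77), and 0, 4 and 0 of all 16668 genes did. Of the 15 proteasome genes outside the naming rule, the ubiquitin receptor Adrm1 fell with metformin (-0.57 ± 0.14, 0.0193), and none passed with leucine or both. Of the 12 genes of transcription and processing, Foxo3 (-0.42 ± 0.13, 0.0465) and Mafg fell with metformin and none passed with the other drinks.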

How the data were processed

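Total RNA was sequenced after removal of ribosomal RNA with a stranded kit, per the labels' protocols. The authors deposited raw counts, whole numbers with no normalization, for 55487 Ensembl identifiers in 52 libraries. The submitters' processing notes name GRCm38, STAR 2.7.3a, featureCounts 1.6.3 and DESeq2 1.30.0. The strand setting and the annotation release are not given in the sources used here, and 55227 identifiers matched GENCODE mouse release 21. Each library was assigned to a group by its title.

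Counts were fitted with edgeR 4.0.16 in R 4.3.3 (TMM scaling, filterByExpr with a count minimum of 10, robust quasi-likelihood test) with 1 mean per group over all 52 libraries, with 39 residual degrees of freedom. The Benjamini-Hochberg adjustment ran over all 16668 genes that passed the filter, and the threshold was 0.05. The fit was tested on simulated data. CPM are counts per 1000000 of TMM-scaled library size, and levels between genes are given per kb of exon. Ratios of paralogs were compared by two-sided exact permutation tests (scipy 1.17.1). Members named with values are the 8 with the smallest p over the 13 groups, the 3 or 1 with the smallest p in a comparison, and the catalytic, immunoproteasome, activator, inhibitor and assembly genes; of the lists, at most the 4 genes with the smallest p, and others named were chosen after their values were seen. The members, gene lists, tests and motifs were chosen with earlier results of these data known, and the ARE letters were tightened after seeing how often a looser form matched. Library depth ran from 15605044 to 32492548 counts, and no 2 libraries of a group agreed within sampling noise (lowest chi-square per degree of freedom 7.47 over 78 pairs).

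Alternatives were RLE scaling, no count filter, DESeq2 1.42.0, voom with sample quality weights (limma 3.58.1), fitting the compared groups alone, the replicate number as a block, log 5.8S rRNA as a covariate, leaving out the 12 libraries with liver transcripts, RL14_ML 1 and 6, or RL7_M 4, and each library in turn. A fit with the GC trend of each library removed was added after seeing the data. Replicate numbers occur in several groups but the labels do not say that they mark a shared animal, litter or day.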

Additional observations from a re-analysis of the deposited data

Results flagged for a closer look

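Among 16 members checked in 13 groups of 4 libraries, 208 groups in all, 7 values, from 5 libraries, stood far from the other 3 of their group, and chance alone flags about 1 group in 20. Psmb8 was at 5.37 CPM in RL14_L 2, against 0.898 to 1.42 CPM in the other RL14_L libraries, and Psmb4 was at 17.1 CPM in the same library, against 10.3 to 10.9 CPM. Psma4 was at 48.5 CPM in HU_W 1, against 56.7 to 58 CPM in the other HU_W libraries, and Psmd8 was at 84.2 CPM there, against 115 to 120 CPM. Psmb7 was at 89.5 CPM in HU_M 4, against 76.4 to 76.8 CPM. Psme4 was at 259 CPM in RL7_W 2, against 331 to 342 CPM. Psmf1 was at 10.3 CPM in RL7_M 4, against 9.35 to 9.46 CPM.

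The effect of the drinks differed between the 3 times for 3 members, by the edgeR F test over all genes: Psmb3 (adjusted p = 0.0271), Psmb4 (0.0274) and Psmb5 (0.0490). None of the 3 passed with the 5.8S level as a covariate.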

How the results depend on the processing

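Counts of members that passed are given with the reported count in brackets. With the 5.8S level as a covariate they were 0 in RL7 against HU over 4 drinks (32), 0 in RL7_M against HU_M (17), 0 in RL7_L against HU_L (19), 0 in RL14_W against HU_W (4), 0 in RL14_W against AMB_W (1), 0 in RL14_M (6), RL14_L (2) and RL14_ML (1) against RL14_W, 3 for any difference (21) and 0 for drink by time (3). RL14 against HU over 4 drinks stayed at 24, a comparison in which low and high 5.8S levels largely offset each other, so that the covariate could hardly change it. In RL7 against HU with metformin, leucine or water the 5.8S levels did not overlap. The 5.8S level and the time can hardly be told apart there, so the loss of calls decides between neither.

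Without the 12 libraries with liver transcripts they were 6 in RL14 against HU (24), 2 in RL7_L against HU_L (19), 1 in RL14_W against HU_W (4), 0 in RL14_L (2) and 2 in RL14_ML (1) against RL14_W, and 11 for any difference (21). The log2 difference of Psmb10 to Psmb7 was then 1.12 in RL7_W against HU_W, 1.57 in RL7_M against HU_M, 1.67 in RL7_L against HU_L, 0.65 in RL7_ML against HU_ML, 1.13 in RL14_W against HU_W and 1.25 in RL7_W against AMB_W, where the smaller groups leave no exact p under 0.05.

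Without RL14_ML 1 and 6 the counts were 8 in RL14_L (2), 11 in RL14_M (6) and 5 in RL14_ML (1) against RL14_W, 4 in RL14_W against AMB_W (1), 11 in RL14_W against HU_W (4), 3 in RL7_M against RL7_W (0), 3 in RL7_ML against HU_ML (0), 2 in RL7_W against HU_W (0), 32 for any difference (21) and 8 for drink by time (3).

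With voom and quality weights they were 1 in HU_W against AMB_W (0), 2 in RL7_W against AMB_W (0), 5 in RL7_W against HU_W (0), 8 in RL7_ML against HU_ML (0), 1, 1 and 2 in RL7_M, RL7_L and RL7_ML against RL7_W (0 each), 12 in RL14_W against AMB_W (1), 13 in RL14_W against HU_W (4), 14 in RL14_M (6), 8 in RL14_L (2) and 13 in RL14_ML (1) against RL14_W, 35 for any difference (21) and 15 for drink by time (3). In a fit of only the groups compared they were 1 in HU_W against AMB_W (0), 2 in RL7_W against AMB_W (0), 3 in RL7_W against HU_W (0), 4 in RL7_ML against HU_ML (0), 2 in RL7_ML against RL7_W (0), 8 in RL14_W against AMB_W (1), 8 in RL14_W against HU_W (4), 13 in RL14_M (6) and 0 in RL14_ML (1) against RL14_W, and 14 in RL14 against HU (24).

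With no filter on low counts they were 14 in RL14 against HU (24), 8 in RL7_M against HU_M (17), 3 in RL14_M (6), 1 in RL14_L (2) and 0 in RL14_ML (1) against RL14_W, 0 in RL14_W against AMB_W (1), 1 in RL14_W against HU_W (4) and 1 for drink by time (3). With the GC trend removed they were 10 in RL7_M against HU_M (17), 1 in RL7_W against HU_W (0), 0 in RL14_W against AMB_W (1), 2 in RL14_W against HU_W (4) and 4 in RL14_ML against RL14_W (1). RLE scaling gave 2 in RL14_W against HU_W (4), and DESeq2 gave 2 in RL14_ML against RL14_W (1). The cause of these shifts was not tested.

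The sign of some members turned in RL7 against HU. With the 5.8S covariate the log2 difference was 0.017 for Psma2, 0.055 for Psma7, 0.024 for Psmb7, 0.143 for Psmc5 and 0.068 for Psmd7, all reported as lower. With the GC trend removed it was 0.024 for Psma2, 0.0058 for Psmb7, 0.075 for Psmd11, -0.055 for Psmd13 and -0.074 for Psmd3. With the 5.8S covariate it was 0.112 for Psma7, 0.071 for Psmc1, 0.059 for Psmd14 and 0.066 for Psmd7 in RL7_L against HU_L, and 0.025 for Psma7, -0.030 for Psmb8 and 0.102 for Psmd7 in RL7_M against HU_M, where Psmd13 was at -0.0025 with the GC trend removed. None of these turned values passed.

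Leaving out 1 library at a time gave 15 to 25 members in RL14 against HU, 9 to 25 in RL7_L against HU_L, 8 to 17 in RL7_M against HU_M, 0 to 1 in RL7_ML against HU_ML, 0 to 5 in RL14_W against HU_W, 0 to 1 in RL14_W against AMB_W, 2 to 7 in RL14_M, 0 to 3 in RL14_L and 0 to 11 in RL14_ML against RL14_W, 18 to 33 for any difference and 0 to 10 for drink by time. The Psmb10 to Psmb7 difference ran from 0.97 to 1.23 in RL7_W against HU_W, 1.14 to 1.52 in RL7_M against HU_M, 1.55 to 2.06 in RL7_L against HU_L, 0.71 to 1.07 in RL7_ML against HU_ML, 0.75 to 1.11 in RL14_W against HU_W, 1.07 to 1.46 in RL7_W against AMB_W and -0.032 to 0.35 in HU_W against AMB_W. The Psmb8 to Psmb5 difference ran from -0.14 to 0.26 in HU_W against AMB_W, -0.19 to 0.18 in RL7_M against HU_M and -0.32 to 0.072 in RL7_W against AMB_W. The Psmb9 to Psmb6 difference ran from -0.47 to 0.29 in HU_W against AMB_W and -0.22 to 0.55 in RL7_W against AMB_W.

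With the replicate number as a block the counts were 3 in RL14_M (6), 0 in RL14_ML (1) against RL14_W and 0 in RL14_W against AMB_W (1), and within 1.5 times of the reported count elsewhere. The correlations of same-numbered libraries ran from -0.36 to 0.33, and in no comparison were those of all pairs over 0.1, so the numbers were not taken to pair the libraries. The depth limits Psmb8, Psmb9, Psmb10, Psmg3 and Psmg4 most, since they are read at about 1 CPM.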
